A study of Pseudochlorella pringsheimii with 2 samples.

Results

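Acetyl-coenzyme A carboxylase (ACCase) was followed as a pool of 8 transcript contigs among the 13566 contigs with deposited counts from *Chlorella ellipsoidea*, a unicellular green alga. The contigs were named as ACCase in the paper and are 56171, 80365, 101511, 71421, 67502, 91597, 59360 and 56174. The first 7 had been chosen by their GmDof4 over CK ratio in these same libraries, and contig 56174 was named as an ACCase contig that did not pass the thresholds of the study. The ratios, and the levels behind them, are therefore given as a description, with no test. The files pair no contig with a gene, and contig sequences were not used here, so that the ACCase name could not be checked and the pool holds the named contigs only. No list of other lipid contigs was set beside them, since those named in the paper were picked by their ratio as well.

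Both libraries came from strain IGDB-1 transformed by electroporation and selected on G418 at 30 mg/L. The GmDof4 library was made from Dof4-1, 1 selected clone that carries the soybean transcription factor gene GmDof4 behind the maize ubi promoter. The CK library was made from CK-1, a line carrying pCK, the same vector with the promoter and the resistance marker and without GmDof4. The strains were grown in antibiotic-free Endo medium, in mixotrophic culture, for 120 h at 25°C under 100 μmol photons per m2 per s. In each strain 3 cultures were mixed before RNA isolation, so each strain has 1 library. Within these libraries no difference has a replicate check. From them, GmDof4 cannot be told apart from other differences between the 2 transformed clones or between the mixed cultures. The paper also measured its regulated lipid transcripts by quantitative real-time PCR, and ACCase activity, with replicates and in further transformed clones. It reports PCR levels that mostly followed the sequencing in Dof4-1 and 1 further GmDof4 clone, but for far fewer transcripts in another. ACCase activity was reported as higher than in CK in every GmDof4 clone assayed. Those measurements were not used here. The counted reads totalled 14589660 in GmDof4 and 14823559 in CK. The median contig of each library had 358 and 333 reads.

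ACCase carboxylates acetyl-CoA to malonyl-CoA, the 2-carbon donor for fatty acid synthesis, and this step commits carbon to the pathway. The biotin carboxylase (BC) part of the enzyme loads a carboxyl group on biotin, the biotin carboxyl carrier protein carries it, and the carboxyltransferase part passes it on to acetyl-CoA. In plants and green algae these activities occur either as separate subunits assembled in the plastid (the heteromeric form) or as domains of 1 large polypeptide (the homomeric form). In the paper, contig 59360 is assigned to the BC subunit of the heteromeric form and contig 56174 to the BC region of the homomeric form. The other 6 contigs all matched 1 and the same ACCase protein in the paper, and to which form they belong is not known.

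The ACCase pool was larger in the GmDof4 library. Summed over the 8 contigs, 13450 reads were counted in GmDof4 against 5178 in CK, which is 922 and 349 reads per 1000000 counted reads (RPM), or 0.0922% and 0.0349% of each library. The summed pool was thus 2.64-fold higher in GmDof4, with a 95% interval of 2.56 to 2.73 and a log2 ratio of 1.40 (1.35 to 1.45). The median log2 ratio over all contigs was 0.09, and the interquartile range ran from -0.18 to 0.37. Here and below, intervals are exact (Poisson for a count or a level, Clopper-Pearson for a share or a ratio). They cover counting error in these libraries only, not the spread between cultures.

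The pool fell into 2 sets by the level in CK. RPKM, the RPM divided by the contig length in kb, allows contigs of different length to be compared. A member under 1 RPKM in CK was taken as near absent there. Contigs 56171, 80365, 71421, 67502, 91597 and 101511 were near absent in CK, the closest to the limit being 91597 at 0.451 RPKM. Contigs 59360 and 56174 were expressed in both libraries, the closest to the limit being 56174 at 9.48 RPKM in CK.

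**Figure D1:**
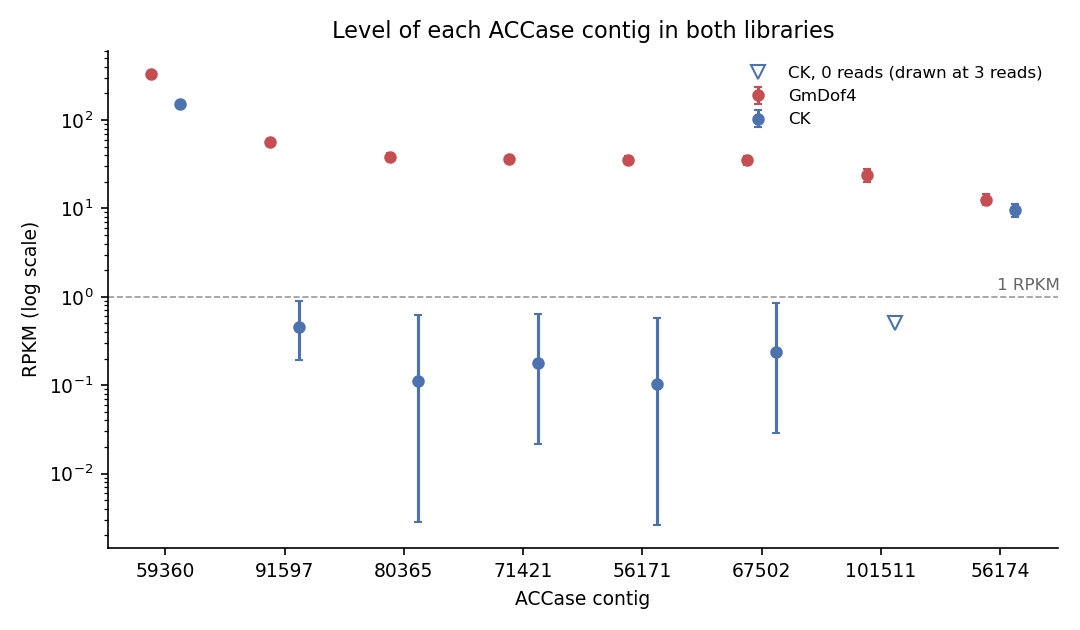
RPKM of each ACCase contig (log scale) in the GmDof4 library (red) and the CK library (blue), with exact 95% Poisson intervals, 1 library per strain; the open triangle marks 0 reads, drawn at the level of 3 reads. The 6 contigs near absent in CK sit between 23.9 and 56.6 RPKM in GmDof4 and at or under 0.451 RPKM in CK, whereas contigs 59360 and 56174 lie well above 1 RPKM in both.

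Over the 6 near-absent contigs 2497 reads were counted in GmDof4 against 14 in CK, where an equal level would have given 2537. For contig 91597 (1196 bp) there were 988 reads in GmDof4 against 8 in CK. Contig 71421 (764 bp) had 400 and 2, and contig 67502 (570 bp) had 293 and 2. All of these were at a level in CK that a handful of reads defines.

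For contig 56171 (657 bp) there were 341 reads in GmDof4 against 1 in CK, and for contig 80365 (600 bp) 334 against 1. Contig 101511 is the shortest, at 405 bp, and held 141 reads in GmDof4 against 0 in CK. With 3 reads taken in place of 0, which would be 0.50 RPKM, the ratio was 47.8-fold, and the lower limit of its exact interval was 38.3-fold. Over their 4192 bp the 6 contigs had a level of 40.8 RPKM in GmDof4 (39.2 to 42.5) and of 0.225 RPKM in CK (0.123 to 0.378). The summed set was 181-fold higher in GmDof4, with an interval of 108 to 332.

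Within GmDof4, 4 of the 6 near-absent contigs stood at similar levels. Contigs 80365, 71421, 56171 and 67502 had 38.2, 35.9, 35.6 and 35.2 RPKM, a span of 1.08-fold, and no neighbours in this order differed beyond counting error. Contig 91597 was higher, at 56.6 RPKM, 1.48-fold above contig 80365 (1.31 to 1.69). Contig 101511 was lower, at 23.9 RPKM, and contig 67502 was 1.48-fold above it (1.20 to 1.82). The highest of the 6 was 2.37-fold above the lowest, and the longest contig had the highest level and the shortest the lowest. For reads that match more than 1 contig the counting rule is not stated, so any reads shared among these contigs could have been divided among them. Whether the contigs share sequence, and whether that bears on their levels, was not tested.

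The 14 CK reads were spread over 5 of the 6 contigs. Had they been split as the reads of GmDof4 were, contig 91597 would have held 5.54 of them, contigs 71421, 56171, 80365 and 67502 between 1.64 and 2.24 each, and contig 101511 0.791. The counts were 8, 2, 1, 1, 2 and 0. Contig 91597 held 39.6% of the reads of the 6 contigs in GmDof4 (37.6% to 41.5%) and 57.1% in CK (28.9% to 82.3%). The intervals overlap, and a difference in the split was not detectable at this depth.

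These contigs were at an ordinary level in GmDof4 and at the bottom of the CK library. Of the 13566 contigs, 3468 had between 23.9 and 56.6 RPKM in GmDof4, and the median contig had 24.4. Among these 3468, the only contigs under 1 RPKM in CK were the 6 ACCase contigs. The range was set by these 6 contigs, which had been chosen by their ratio in the same libraries, so nothing is read from this count. In the CK library as a whole 10 contigs were under 1 RPKM. The other 4 had from 0 to 21.4 RPKM in GmDof4, so 1 of them came close to the range of the ACCase contigs. In the opposite direction, 3 contigs under 1 RPKM in GmDof4 had at least 23.9 RPKM in CK.

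**Figure D2:**
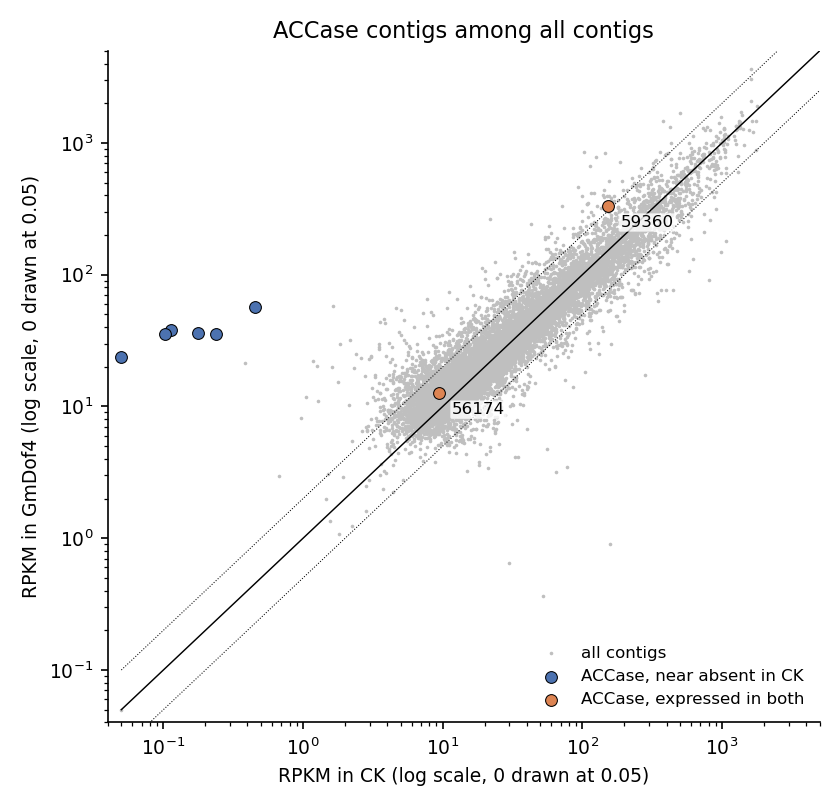
RPKM in the CK library (x axis) against the GmDof4 library (y axis), both on log scales with 0 drawn at 0.05, for all 13566 contigs (grey) and for the ACCase contigs near absent in CK (blue) or expressed in both (orange). The solid line marks equal levels and the dotted lines 2-fold; the 6 blue points lie apart at the left, while contig 59360 lies just above the upper 2-fold line and contig 56174 between the lines.

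Contig 59360, the BC subunit of the heteromeric form and at 2230 bp the longest member, was the most abundant ACCase contig in both libraries. It held 10765 reads in GmDof4 against 5020 in CK, a level of 331 RPKM (325 to 337) against 152 (148 to 156). In GmDof4 3.21% of all contigs had a higher RPKM, and in CK 9.86% did. Its ratio was 2.18-fold, with an interval of 2.11 to 2.25.

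Contig 56174, the BC region of the homomeric form, is 1025 bp long and held 188 reads in GmDof4 against 144 in CK. Its level was 12.6 RPKM (10.8 to 14.5) in GmDof4 and 9.48 (7.99 to 11.2) in CK, and the ratio was 1.33-fold (1.06 to 1.66). In both libraries it was among the less abundant transcripts, with 81.6% of contigs above it in GmDof4 and 86.6% in CK. The intervals of its level in the 2 libraries overlapped, although the interval of its ratio by library totals excluded an equal level. The lower limit of its log2 ratio was 0.087, under the median of all contigs, 0.094. Median-of-ratios scaling lowered log2 ratios by 0.094, more than this limit, so an equal level is not excluded under it. For contig 59360 the level intervals did not overlap.

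The heteromeric BC contig outweighed the homomeric one in both libraries. Per kb, contig 59360 was 26.3-fold above contig 56174 in GmDof4 and 16.0-fold in CK. The order of the members by RPKM also differed. In CK contig 56174 was second to contig 59360 and far above the other 6, and in GmDof4 it was the lowest of the 8, under contig 101511 with no overlap of their intervals.

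Of the 8 members, 7 were past 2-fold higher in GmDof4, and over the 13565 contigs with at least 1 read 778, or 5.74%, were past it in that direction and 325, or 2.4%, in the other. Past 64-fold were 5 members, and these were the 5 contigs past 64-fold of all contigs, 0.0369%. Since the members were selected on this ratio, nothing is read from these counts. The ratios of the near-absent contigs ran from 125-fold for contig 91597 (63.4 to 291) to 346-fold for contig 56171 (61.8 to 13724), with the value for contig 101511, set by 3 reads, below them. With 0 to 8 reads in CK, all of these intervals overlap and their order is not resolved.

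**Figure D3:**
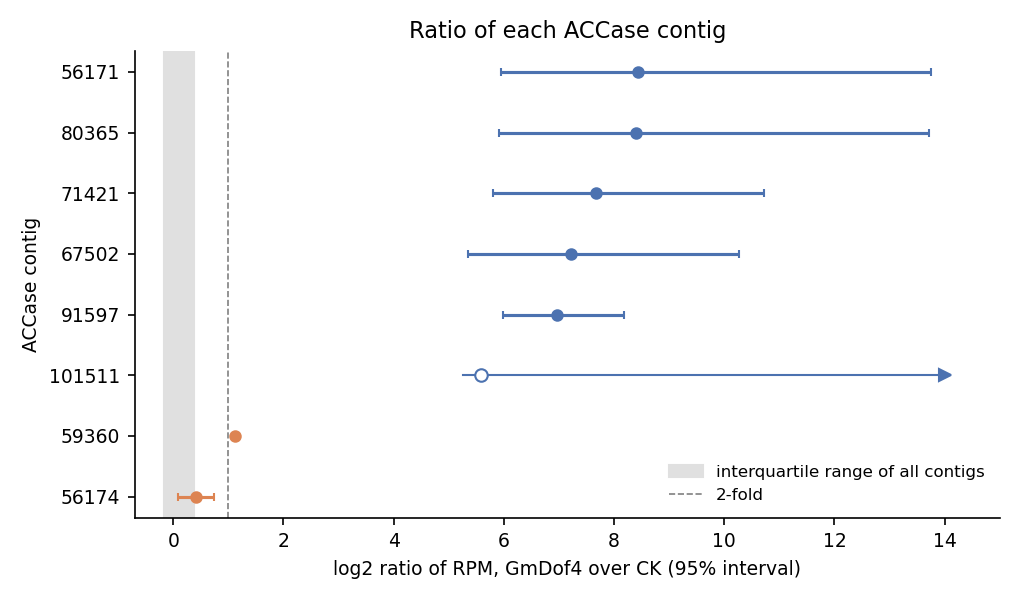
Log2 ratio of RPM, GmDof4 over CK, for each ACCase contig with its exact 95% interval; the grey band marks the interquartile range of all contigs (-0.18 to 0.37) and the dashed line 2-fold. Blue contigs are near absent in CK, orange ones expressed in both; the open point of contig 101511 is the value with 3 reads in CK, and its interval has a lower limit of 5.26 and no upper limit.

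The composition of the pool differed between the libraries. In CK contig 59360 held 96.9% of the reads of the pool (96.4% to 97.4%), contig 56174 held 2.78% (2.35% to 3.27%) and the 6 near-absent contigs 0.270% (0.148% to 0.453%). In GmDof4 contig 59360 held 80.0% (79.4% to 80.7%), contig 56174 1.40% (1.21% to 1.61%) and the 6 contigs 18.6% (17.9% to 19.2%). Contig 91597 alone accounted for 7.35% of the pool in GmDof4, and the other 5 for 1.05% to 2.97% each. The share of contig 56174 was thus smaller in GmDof4 although its own level was not.

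**Figure D4:**
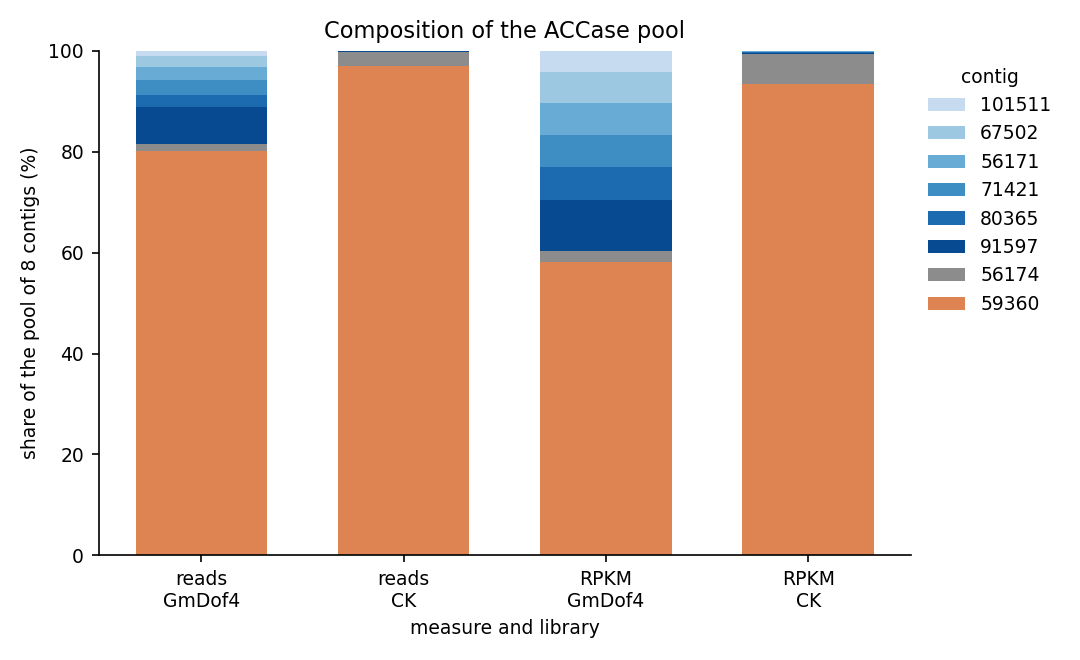
Share of each contig in the ACCase pool of 8 contigs, in percent, in the GmDof4 and CK libraries, by reads (left pair of bars) and by RPKM (right pair); orange is contig 59360, grey contig 56174 and the blues the 6 contigs near absent in CK. The blue part is 18.6% of the reads and 39.6% of the RPKM in GmDof4, and under 1% of either in CK.

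Shares by reads favour long contigs. By RPKM, the 6 near-absent contigs held 39.6% of the pool in GmDof4 and 0.665% in CK, and contig 59360 held 58.2% and 93.5%. The pool summed as RPKM was 569 in GmDof4 and 162 in CK, a ratio of 3.50-fold. Summing RPKM counts each contig as a transcript of its own. If the 6 contigs, which match the same protein, were pieces of 1 transcript, its level in GmDof4 over their summed length would be 40.8 RPKM. It would make up 10.6% of the pool in GmDof4 and 0.139% in CK. The pool would be 384 against 162 RPKM, 2.38-fold higher. This takes 1 mean level for the 6 contigs, whose own levels in GmDof4 ran from 23.9 to 56.6 RPKM. Whether they are pieces of 1 transcript or come from several genes was not tested.

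Where the difference between the libraries lay within the pool depended on this choice. The pool was 573 RPM higher in GmDof4 than in CK, of which contig 59360 gave 399 RPM and the 6 near-absent contigs 170 RPM. In percent, contig 59360 made up 69.7% of the difference (68.5% to 71.0%, delta method for counting error), the 6 contigs 29.7% (28.5% to 30.9%) and contig 56174 0.554% (0.131% to 0.977%). By summed RPKM the order turned, with 55.2% of the difference from the 6 contigs and 44.1% from contig 59360. With the 6 contigs as 1 transcript, 80.4% came from contig 59360 and 18.2% from the 6.

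**Figure D5:**
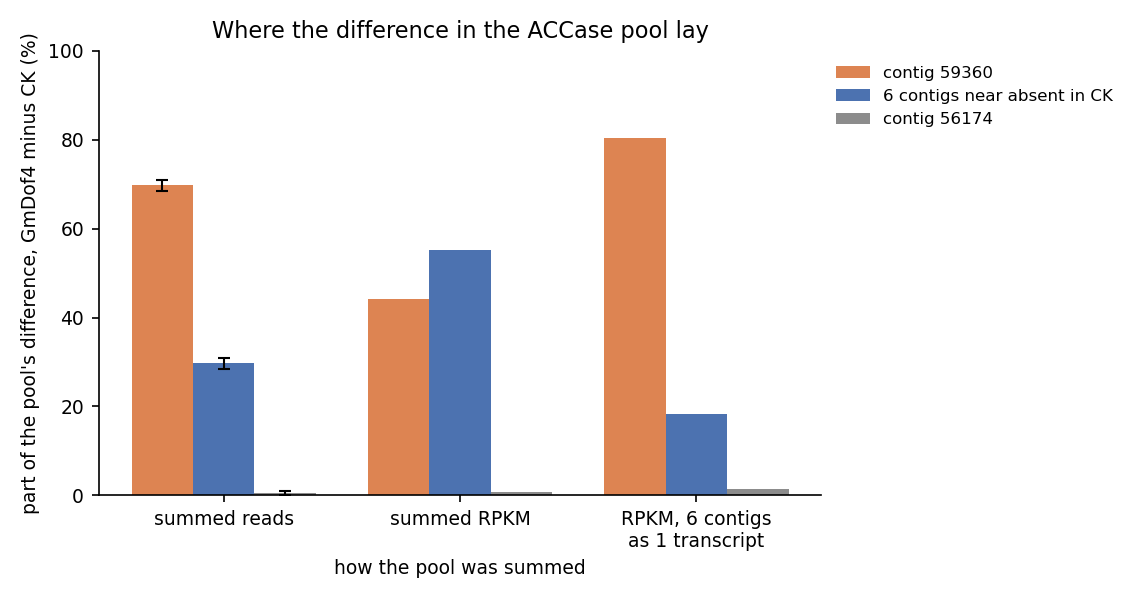
Part of the difference in the ACCase pool, GmDof4 minus CK, in percent, that came from contig 59360 (orange), the 6 contigs near absent in CK (blue) and contig 56174 (grey), for 3 ways of summing the pool; error bars, for reads only, are 95% intervals for counting error. Contig 59360 gave the larger part by reads (69.7%) and with the 6 contigs as 1 transcript (80.4%), and the 6 contigs did by summed RPKM (55.2%).

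The 2.64-fold ratio of the pool rested on the weight of contig 59360 in CK. Without it, the other 7 contigs had a log2 ratio of 4.11 (3.88 to 4.35). The 2 contigs expressed in both libraries summed to 10953 reads in GmDof4 against 5164 in CK, a 2.16-fold ratio (2.08 to 2.23).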

How the data were processed

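Poly(A) RNA of 2 libraries, 1 per strain and each from 3 mixed cultures, was sequenced single-end. The authors merged the reads with those of a further library, not analysed here, assembled them with SOAPdenovo, mapped the reads with BWA to the contigs of at least 300 bp and counted them on each. The deposited counts are whole, unnormalized numbers of reads on each contig. RPKM values, deposited beside them, equal the counts divided by contig length and library total, within 5.23e-12. Contig lengths were read from the contig names; other parts of those names were not used.

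Each ratio is that of GmDof4 to CK in RPM (reads per 1000000 counted), with 0 replaced by 3 reads (0.206 RPM in GmDof4 and 0.202 in CK), in Python 3.11.15 with scipy 1.17.1. Intervals are at 95%. PCR was used and reads carry no molecular identifiers, so reads copied from 1 molecule cannot be told apart. Intervals and floors cover counting error only and take reads as independent. Where reads are copies, the intervals are too narrow. On simulated reads with known ratios, for GmDof4 over CK on 13566 contigs, 95.5% of 2200 intervals held the true ratio. The simulation drew counting error only, as the intervals assume, so it checks their computation and not the spread between cultures. Most true ratios in it were 1. No test was made, because each strain has 1 library and the members were chosen with earlier results of these data known, as were the sets and the alternatives. The 8 members, and no other contig, are named. The alternatives were TMM (edgeR 4.0.16) and median-of-ratios (DESeq2 1.42.0) scaling, totals less the 10 most abundant contigs, summed RPKM, the near-absent contigs as 1 transcript, pools without contig 59360, 56174 or 91597, other treatments of 0, and minimums of 50 reads or 500 bp.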

Additional observations from a re-analysis of the deposited data

How the results depend on the processing

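The pool and both sets stayed higher in GmDof4 under each scaling and by summed RPKM, the pool also with 1 transcript and without contig 59360, 56174 or 91597, and the near-absent set also without contig 91597. The log2 ratio of the pool, 1.40, was 1.32 under TMM and 1.31 under median-of-ratios scaling, which lowered the median of all contigs by 0.08 and 0.09. That of the expressed set, 1.11, was 1.03 (0.98 to 1.08) and 1.01 (0.97 to 1.06), and both of these intervals hold 2-fold. The pool's log2 ratio was 1.81 by summed RPKM, 1.25 with the near-absent contigs as 1 transcript, 4.11 without contig 59360 and 1.29 without contig 91597. Under the same 4 settings the near-absent share of the pool was 39.6%, 10.6%, 93.0% and 12.1% in GmDof4, and 0.665%, 0.139%, 8.86% and 0.116% in CK. The part of the pool difference from contig 59360, 69.7%, was 44.1% by summed RPKM, 80.4% with 1 transcript and 79.0% without contig 91597. Contigs past 2-fold higher numbered 778, against 642 under TMM and 617 under median-of-ratios scaling. They numbered 479 at 500 bp or longer, where fewer contigs are counted. Of 48 values for single contigs under the alternatives, 46 stayed within the main interval. These intervals are wide for the near-absent contigs, and that of contig 101511 has no upper limit. Its log2 ratio, 5.58 with 3 reads in place of 0, was 8.16 with 0.5 reads and 7.17 with a pseudocount of 1 read. With that pseudocount, contig 56171 went from 8.44 to 7.44 and contig 80365 from 8.41 to 7.41. The values outside the main interval, 1.05 and 1.03 for contig 59360 under TMM and median-of-ratios scaling, stayed past 2-fold as point values. No paired analysis was possible because each strain has 1 library. Depth limits the near-absent contigs, with 0 to 8 reads each in CK.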
